A study of Mus musculus with 10 samples.

Results

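A set of 10 genes of bile acid synthesis, conjugation, transport and regulation was followed across 10 mouse livers. They were chosen by symbol from the deposited count table, which holds 24537 gene symbols: 4 enzymes of synthesis (Cyp7a1, Cyp8b1, Cyp27a1 and Cyp7b1), 2 of conjugation (Slc27a5 and Baat), 2 transporters (Slc10a1 and Abcb11) and 2 nuclear receptors (Nr1h4 and Nr0b2). All 10 passed the filter on low counts. All mice were male and had been injected with AAV8, an adeno-associated vector that enters liver cells, encoding Staphylococcus aureus Cas9 (saCas9) behind TBG, a promoter active in hepatocytes, with a guide RNA behind U6. Young controls (Rosa26 guide, virus at 7 months, liver taken at 9 months, 3 livers) and old controls (Rosa26 guide, virus at 23 months, taken at 25 months, 3 livers) had a guide that targets Rosa26, a locus widely used as a neutral site. Old Cd44 knockout mice (virus at 23 months, taken at 25 months, 4 livers) received a guide against Cd44, a surface receptor, with guide 4 in replicates 1 and 2 and guide 2 in replicates 3 and 4. Whole liver was sequenced, so a gene's value is a sum over all cells of the organ, and fewer cells of a type and less RNA per cell cannot be told apart. Strain, hour of collection and feeding are not given in the sources used here.

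Hepatocytes turn cholesterol into bile acids by 2 routes. In the classical route Cyp7a1 adds the first hydroxyl group and sets the rate, and Cyp8b1 steers the product towards cholic acid. In the alternative route Cyp27a1 oxidises the side chain and Cyp7b1 hydroxylates the resulting oxysterols. Slc27a5 and Baat then couple the acids to coenzyme A and to taurine or glycine, Abcb11 pumps the conjugates into bile, and Slc10a1 takes returning bile acids up from blood. Bile acids bind the receptor Nr1h4 (FXR), which induces Nr0b2 (SHP), a repressor of the synthesis genes.

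Promoter windows were available from the RefSeq table (GRCm38.p6) for 6 members. Cyp7a1, Cyp7b1, Slc27a5 and Baat had no entry. The windows, 250 bases before to 50 after a start site, were searched on both strands for GTCANTGAC (bound by Nr1h4 with Rxra), CAAGGTCA (Nr5a2), CAAAGTCCA (Hnf4a), TTATGTAA (Dbp and related factors) and TTCNNNGAA (STAT5). Exact matches were found in 3 genes, and the 250 bases before their start sites are shown, with each match in capitals. The Cyp8b1 match is the Hnf4a string, and those of Slc10a1 and Nr0b2 are the STAT5 string. No window of a member held the strings listed for Nr1h4, Nr5a2 or Dbp. The Cyp8b1 stretch is chr9:121916306-121916555 (minus strand), with CAAAGTCCA at position -67 from the start site. For Slc10a1, chr12:80968706-80968955 (minus strand), the match is TTCTCTGAA at -53, and for Nr0b2, chr4:133553126-133553375 (plus strand), it is TTCAATGAA at -91.
Cyp8b1: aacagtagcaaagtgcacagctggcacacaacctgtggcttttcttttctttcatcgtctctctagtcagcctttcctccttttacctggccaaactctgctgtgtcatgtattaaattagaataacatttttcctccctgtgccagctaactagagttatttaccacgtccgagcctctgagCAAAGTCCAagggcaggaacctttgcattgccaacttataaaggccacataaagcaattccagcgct
Slc10a1: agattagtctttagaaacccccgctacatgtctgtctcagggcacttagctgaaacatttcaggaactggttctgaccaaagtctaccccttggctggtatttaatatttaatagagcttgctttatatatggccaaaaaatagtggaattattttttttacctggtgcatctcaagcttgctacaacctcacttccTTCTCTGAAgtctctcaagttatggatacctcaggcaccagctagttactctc
Nr0b2: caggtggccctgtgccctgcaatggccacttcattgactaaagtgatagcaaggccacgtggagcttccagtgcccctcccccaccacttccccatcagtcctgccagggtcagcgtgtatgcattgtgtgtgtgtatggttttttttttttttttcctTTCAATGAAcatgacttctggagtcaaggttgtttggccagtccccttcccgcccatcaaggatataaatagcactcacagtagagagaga
CAAAGTCCA occurs in 0.475% of the 32851 promoter windows of the table and TTCNNNGAA in 8.3%. The windows of Abcb11, Cyp27a1 and Nr1h4 hold none of these exact strings, nor does a further window of Slc10a1. A string match describes the sequence only.

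Total counts ranged from 15821198 to 21710228 per liver. Levels are given as CPM, counts scaled to library size with TMM factors, which were 0.823 to 0.897 in young, 0.966 to 1.12 in old control and 1.05 to 1.11 in knockout livers. Cd44 itself measured 16.6, 11.1 and 10.1 CPM in the young livers, 14.2, 30.0 and 25.9 CPM in the old controls, and 18.9, 29.0, 17.6 and 13.1 CPM in the libraries labelled knockout. The labelled knockouts lay within the range of the old controls apart from replicate 4 (log2 fold change -0.25, edgeR adjusted p 0.896), so directions in the knockout comparison rest on the labels. Old control replicate 3 stood apart in several values below, and its library name lies outside the run of the others. The 7 hepatocyte markers were all detected and summed to between 81462 and 128391 CPM over the 10 livers, against 13.3 to 29.2 CPM for 8 cholangiocyte markers.

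With age, Cyp7b1 and Baat fell and the other 8 members did not pass the test. Cyp7b1, the oxysterol hydroxylase of the alternative route, was 0.396 times its young level in old controls (95% interval 0.232 to 0.678). Baat, which couples bile acids to taurine or glycine, was 0.603 times its young level (95% interval 0.480 to 0.758). By the edgeR quasi-likelihood test with Benjamini-Hochberg adjustment over 13909 genes, 2 of 10 members had an adjusted p under 0.05, both lower. Over all genes 22.8% were called, 8.66% lower and 14.1% higher, so the members' share is near that of all genes. The median log2 fold change was -0.23 over the members and 0.04 over all genes tested. It was -0.50 over the 7 hepatocyte markers, 6 of them below 0, so a lower median is not particular to the members. With total counts in place of TMM factors, a scaling tried after seeing the data, the median of all genes moved by 0.31 and the share of higher genes among those called went from 62.0% to 91.6%. Cyp7b1 and Baat were still lower and still called under that scaling, at -1.05 and -0.42, while Cyp27a1, Slc27a5, Slc10a1 and Nr1h4 turned from slightly lower to slightly higher (0.03 to 0.21), none of them called.

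**Figure D1:**
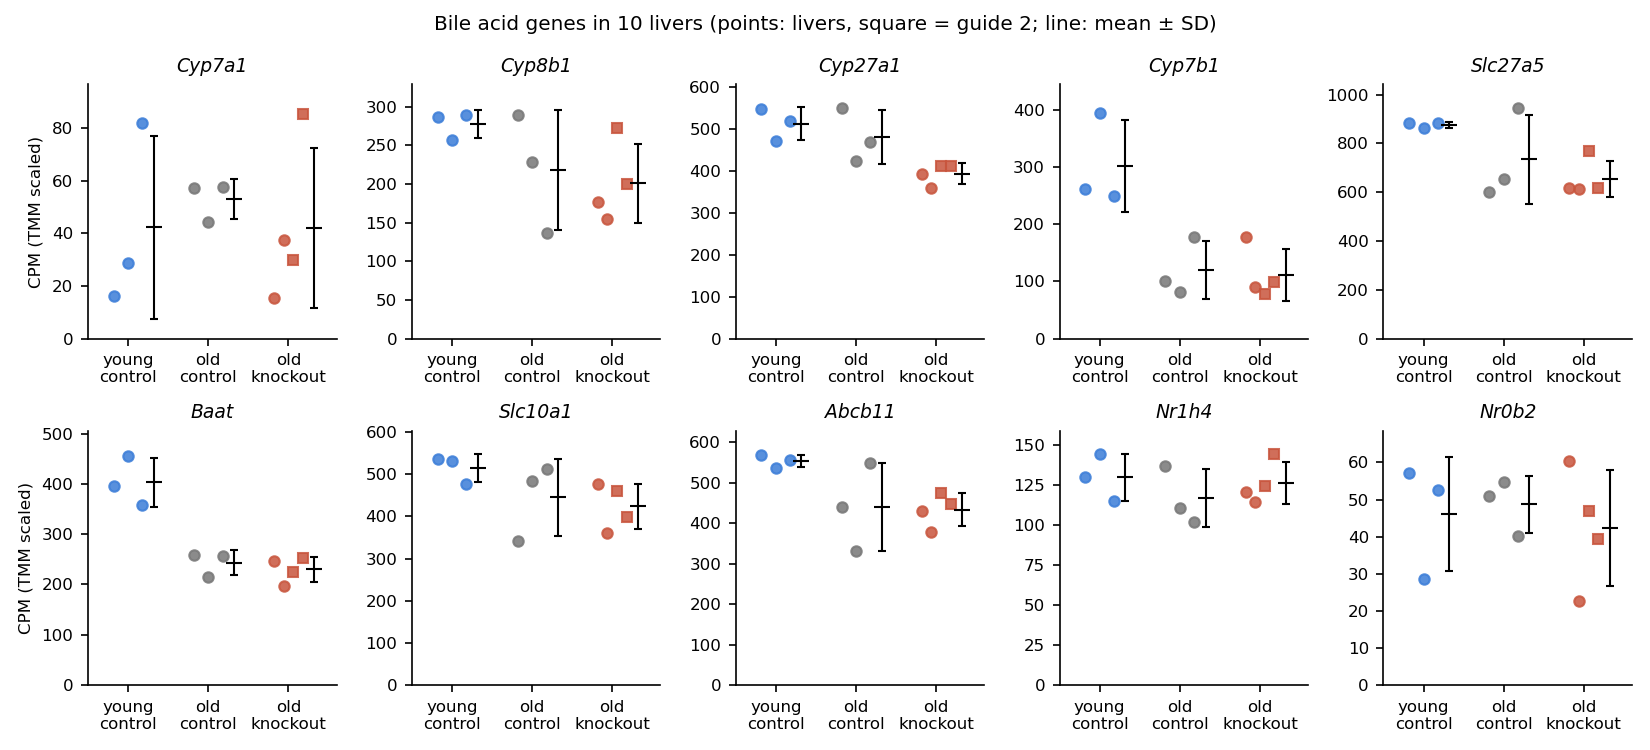
CPM (TMM scaled, vertical axis from 0) of the 10 members in each liver of the 3 groups. Circles are control and guide 4 livers, squares are guide 2 livers, and the black lines give mean ± SD. For Cyp7b1 and Baat every young liver lies above every old liver, while the Cyp7a1 points of the young and knockout groups spread most widely.

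Cyp7a1 (chr4:6265612-6275633, minus strand, 6 exons) measured 16.2, 28.5 and 81.8 CPM in young replicates 1 to 3, 57.1, 44.4 and 57.5 CPM in old controls 1 to 3, and 15.3, 37.3, 29.7 and 85.4 CPM in knockouts 1 to 4. The livers of 1 group differed by up to 5.04-fold in young and 5.57-fold in knockout mice but by 1.30-fold in old controls, and the groups overlap. The rate-limiting step of the classical route had a wide interval in every comparison: the log2 fold change with age was 0.33 (95% interval -0.999 to 1.66, edgeR adjusted p 0.720). In the knockout comparison it was -0.34 (95% interval -1.57 to 0.90, edgeR adjusted p 0.922). Both intervals extend far on either side of 0, so they leave sizeable changes in either direction possible.

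Cyp8b1 (chr9:121914356-121916305, minus strand, a single exon) measured 287, 257 and 290 CPM in young livers, 289, 229 and 136 CPM in old controls, and 176, 155, 272 and 200 CPM in knockouts. The young livers were close together, old control 3 was the lowest of all 10, and old control 1 matched the young level. Its log2 fold change with age was -0.35 (standard error 0.26, edgeR adjusted p 0.351), and -0.10 without old control 3. In the knockout comparison the value was -0.12 (standard error 0.25, edgeR adjusted p 0.940).

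Cyp27a1 (chr1:74713574-74737892, plus strand, 7 exons), the mitochondrial enzyme that opens the alternative route, measured 548, 471 and 520 CPM in young livers and 551, 425 and 469 CPM in old controls. The knockout livers had 392, 360, 413 and 412 CPM, each below every control liver of either age. Age gave a log2 fold change of -0.09 (95% interval -0.40 to 0.21, edgeR adjusted p 0.657). Knockout gave -0.29 (standard error 0.13, edgeR adjusted p 0.748, unadjusted p 0.0465), so the separation of the groups did not pass the test over all genes.

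Cyp7b1 (chr3:18071950-18243338, minus strand, 6 exons) measured 262, 395 and 249 CPM in the young livers, a mean of 302 ± 80.8 (SD, n = 3). The old controls had 100.1, 81.3 and 178 CPM and the knockouts 177, 89.5, 78.6 and 99.0 CPM. Every old liver, with or without the knockout label, lay below every young liver, and 1 liver of each old group stood near 178 CPM with the rest at or below 100.1. The log2 fold change with age was -1.34 (standard error 0.35, edgeR adjusted p 0.0242). Its adjusted p was 0.0989 without young replicate 2, 0.0572 without old control 1 and 0.0907 without old control 2, with log2 fold changes of -1.10, -1.23 and -1.12, so the call depends on each of these livers. Cyp7b1 is also known as a gene that male mouse liver expresses more than female liver.

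Per liver, the ratio of the Cyp7b1 to the Cyp7a1 level was 16.2, 13.9 and 3.04 in young, 1.75, 1.83 and 3.09 in old control, and 11.5, 2.40, 2.64 and 1.16 in knockout livers. The ratio sets the alternative route's enzyme against that of the classical route within a library, so it does not depend on scaling. Young replicate 3, old control 3 and knockout 1 fall in the range of the other age, so the groups overlap. Against Cyp27a1 of its own route, Cyp7b1 stood at 0.478, 0.838 and 0.478 in young, 0.182, 0.191 and 0.379 in old control, and 0.452, 0.249, 0.190 and 0.240 in knockout livers. Here every young liver was above every old one.

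Slc27a5 (chr7:12988346-12998192, minus strand, 10 exons), the bile acid coenzyme A ligase, measured 882, 863 and 882 CPM in young livers, 603, 656 and 945 CPM in old controls, and 619, 611, 768 and 619 CPM in knockouts. All old livers except old control 3 were below the young ones. The log2 fold change with age was -0.25 (standard error 0.18, edgeR adjusted p 0.320). Without old control 3 it was -0.48 (edgeR adjusted p 0.0219), so this single liver decides the call.

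Baat (chr4:49489422-49506557, minus strand, 4 exons) measured 396, 455 and 357 CPM in young livers (403 ± 49.0, SD, n = 3), 258, 214 and 256 CPM in old controls (243 ± 24.9, SD, n = 3), and 247, 196, 225 and 252 CPM in knockouts (230.1 ± 25.4, SD, n = 4). The groups of different age did not overlap, and the ranges of the old groups overlapped. Age gave a log2 fold change of -0.73 (standard error 0.15, edgeR adjusted p 0.0110), which became -0.64 (edgeR adjusted p 0.0569) without young replicate 2 and kept its call when any other young or old control liver was left out. Knockout gave -0.08 (95% interval -0.39 to 0.23, edgeR adjusted p 0.930). Acnat1, a related acyltransferase gene 15.5 kb away on the same strand, fell by 0.87 on the log2 scale with age (edgeR adjusted p 0.00855), and Mrpl50 on the other side, a gene of the mitochondrial ribosome, fell by 0.56 (edgeR adjusted p 0.0212). Whether reads were split between Baat and its relatives was not tested.

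Slc10a1 (chr12:80953183-80968705, minus strand, 6 exons), the sodium-dependent uptake transporter NTCP, measured 536, 531 and 476 CPM in young livers, 342, 483 and 512 CPM in old controls, and 476, 361, 460 and 399 CPM in knockouts. Old control 1 was the lowest liver, the old controls overlap the young livers, and the highest knockout liver came to the level of the lowest young one. Its log2 fold change was -0.21 with age (95% interval -0.59 to 0.18, edgeR adjusted p 0.408) and -0.07 with knockout (95% interval -0.43 to 0.29, edgeR adjusted p 0.95).

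Abcb11 (chr2:69238282-69342616, minus strand, 31 exons), the bile salt export pump, measured 568, 538 and 557 CPM in young livers, 440, 332 and 548 CPM in old controls, and 431, 378, 476 and 448 CPM in knockouts. Old control 3 was the only old liver within the young range. The log2 fold change with age was -0.33 (standard error 0.18, edgeR adjusted p 0.189), or -0.53 (edgeR adjusted p 0.0229) without old control 3, and that with knockout was -0.02 (95% interval -0.39 to 0.34). Exons of Abcb11 are overlapped by the antisense gene Gm13613 and the pseudogene Gm13614 on the other strand, and the strand setting of the counts is not given in the sources used here.

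Nr1h4 (chr10:89454234-89533585, minus strand, 11 exons), the bile acid receptor, measured 130.1, 145 and 115 CPM in young livers, 137, 111 and 102 CPM in old controls, and 121, 115, 125 and 145 CPM in knockouts. The groups overlap throughout, and the intervals are among the narrower ones: -0.15 with age (95% interval -0.49 to 0.18, edgeR adjusted p 0.484) and 0.11 with knockout (95% interval -0.20 to 0.42, edgeR adjusted p 0.902). Nr0b2 (chr4:133553376-133556536, plus strand, 2 exons), its target and a repressor, measured 57.3, 28.6 and 52.5 CPM in young livers, 51.1, 54.8 and 40.2 CPM in old controls, and 60.4, 22.7, 46.8 and 39.3 CPM in knockouts. The lowest liver was knockout replicate 2, and the groups overlap. Its log2 fold change was 0.08 with age (95% interval -0.64 to 0.79, edgeR adjusted p 0.881) and -0.20 with knockout (95% interval -0.87 to 0.46, edgeR adjusted p 0.912).

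**Figure D2:**
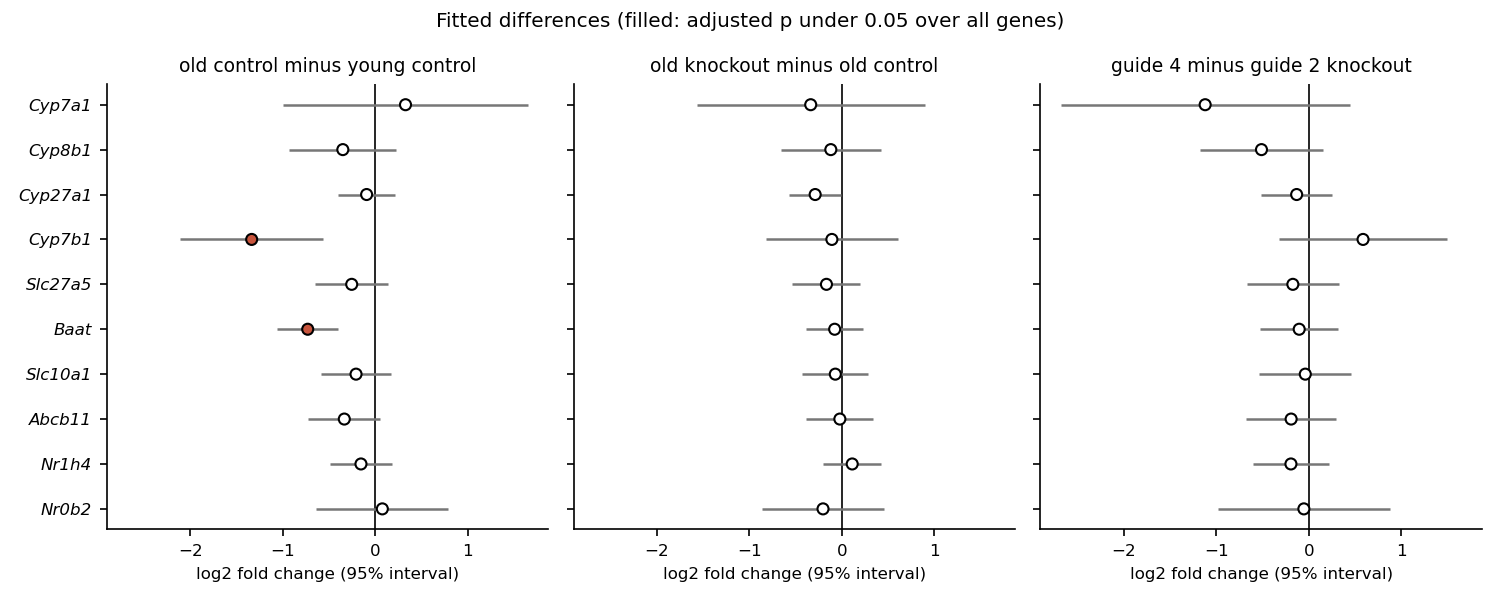
Log2 fold changes (horizontal axis) of the 10 members with 95% intervals, for old against young controls, knockout against old controls, and guide 4 against guide 2. Filled points have an adjusted p under 0.05: Cyp7b1 (-1.34) and Baat (-0.73) in the age panel, and none in the other panels.

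In the knockout comparison 0 of 10 members were called, as were 0% of all genes. At an unadjusted p under 0.05 stood 1 member, Cyp27a1, beside 6.59% of all genes, and DESeq2 called 7 genes, none of them a member. The median log2 fold change was -0.11 over the members and -0.02 over all genes. The widest intervals were those of Cyp7a1, Cyp7b1 (-0.11, 95% interval -0.82 to 0.60) and Nr0b2. Set beside the age values, old knockout against young livers gave -1.44 for Cyp7b1 (standard error 0.32, edgeR adjusted p 0.0250) and -0.81 for Baat (standard error 0.14, edgeR adjusted p 0.0126), 2 of 10 members, both lower, where 11.6% of genes were called (4.97% lower). This comparison shares the young livers with the age comparison and the knockout livers with the knockout comparison. Leaving out single livers took the adjusted p of Cyp7b1 here above 0.05 in 6 of 7 cases, up to 0.116 without young replicate 2, and that of Baat to 0.0743 without the same liver.

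The Cd44 guides, each in 2 livers, were compared in a fit over 14153 genes with an arm for each guide. Of the members, 0 of 10 were called between guide 4 and guide 2, where 0.0212% of genes were. Cyp7a1 had the largest difference, at -1.12 (95% interval -2.69 to 0.44, guide 4 minus guide 2), followed by Cyp7b1 at 0.59 (95% interval -0.32 to 1.5) and Cyp8b1 at -0.51 (95% interval -1.17 to 0.15). The Cyp7a1 pairs were 15.3 and 37.3 CPM for guide 4 and 29.7 and 85.4 CPM for guide 2, which overlap. Against the old controls, 0 of 10 members were called with either guide alone, where 0.0495% of genes were called for guide 2 and 0% for guide 4.

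Levels of different genes were compared as CPM per kb of merged exon sequence, averaged over the 10 livers. Slc27a5 was highest at 305, followed by Cyp27a1 at 209.9, Slc10a1 at 208, Baat at 147, Cyp8b1 at 117, Abcb11 at 91.6, Cyp7b1 at 78.9, Nr1h4 at 54.1, Nr0b2 at 40.1 and Cyp7a1 at 10.9. Each neighbouring pair in this order overlaps in its range over livers, most closely Cyp27a1 and Slc10a1. The gene of the rate-limiting step was the lowest per length, at 3.68 to 20.5 CPM per kb. In young livers Cyp7b1 averaged 139 CPM per kb, near the 142 of Cyp8b1, and in old controls 55.3 against 112.

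Profiles over the 10 livers were compared by the root mean square (RMS) difference of log2 CPM after centring each gene on its mean. The closest members were Slc27a5 and Abcb11 (0.15), and the farthest were Cyp7a1 and Cyp7b1 (1.29). Among all genes tested, those nearest to Cyp7b1 were Stip1, Dnaja1 and Xbp1, each at 0.26, where the RMS of the Cyp7b1 profile itself is 0.78. Stip1 encodes a co-chaperone, and it measured 136, 176 and 168 CPM in young livers, 53.4, 68.9 and 98.2 CPM in old controls, and 120.6, 58.1, 59.4 and 60.9 CPM in knockouts. Like Cyp7b1, its highest old livers were old control 3 and knockout 1. The genes nearest to Cyp7a1 were Stx1a, Gata2 and Ecm2 at 0.47 to 0.48, against an own RMS of 0.82, and all 3 were at 2.04 CPM or less in every liver. Nearest to Cyp8b1 (own RMS 0.38) were 2700038G22Rik at 0.20, Cited2, a transcriptional coregulator, at 0.22 and Zfp97 at 0.23. Nearest to Nr0b2 (own RMS 0.44) were Slc35e4 at 0.19, Zfp334 at 0.26 and 1700120C14Rik at 0.28. Over the livers 2700038G22Rik measured 0.191 to 0.857 CPM and Slc35e4 0.218 to 0.821 CPM, and Zfp334 and 1700120C14Rik were at 2.51 CPM or less. Profiles at such levels rest on few reads. These are descriptions over 10 livers that share their scaling.

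**Figure D3:**
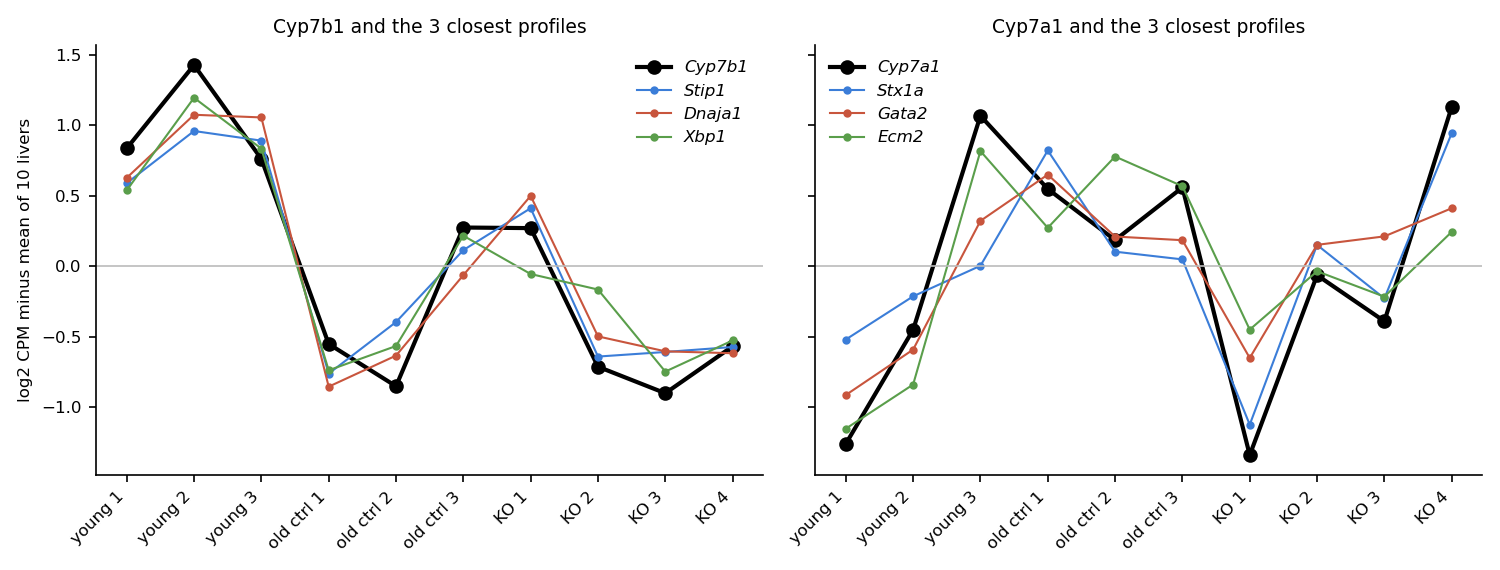
Log2 CPM minus the gene's mean over the 10 livers (vertical axis) for Cyp7b1 and Cyp7a1 in black and their 3 closest genes in colour, by liver. Lines only join the points of a gene. The Cyp7b1 set is above 0 in the 3 young livers, while Cyp7a1 is above 0 in young replicate 3, the old controls and knockout replicate 4.

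Of 14 other enzymes of bile acid synthesis 13 were tested (Ch25h was below the filter), and with age 0 rose, 2 fell and 11 were not called. Over all genes 14.1% were called higher and 8.66% lower with age. Scp2, the peroxisomal thiolase that shortens the side chain, fell by 0.64 on the log2 scale (standard error 0.18, edgeR adjusted p 0.0293) from 4139, 4415 and 4467 CPM in young livers to 2475, 2692 and 3211 CPM in old controls. The ligase gene Slc27a2 fell by 0.54 (standard error 0.14, edgeR adjusted p 0.0237). With 1 liver left out, Scp2 was called in 1 of 6 fits (edgeR adjusted p up to 0.0993) and Slc27a2 in 2 of 6 (up to 0.0981). The list median was -0.38 against 0.04 over all genes. With total counts as the scaling 0 of the 13 were called, and Scp2 and Slc27a2 stood at -0.34 and -0.24.

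Among 15 other transporters of bile acids and bile lipids, 13 were tested (Slc51a and Slc51b were below the filter), and with age 1 rose and 2 fell. The shares over all genes were 14.1% higher and 8.66% lower. Slc10a2, the uptake transporter best known from ileum and bile duct cells, measured 103.6, 101.1 and 169 CPM in young livers, 29.2, 36.3 and 59.8 CPM in old controls, and 56.3, 41.0, 24.9 and 23.2 CPM in knockouts. No old liver reached the young range, and the level in old controls fell to 0.335 times the young level (log2 -1.58, standard error 0.37, edgeR adjusted p 0.0156). The 8 cholangiocyte markers summed to 15.8 to 27.2 CPM in young and 13.9 to 24.3 CPM in old control livers, with 0 of the 5 tested called. Abcg2, an efflux pump of the canalicular membrane, fell by 0.73 (standard error 0.19, edgeR adjusted p 0.0212). Slco1a4, an organic anion uptake carrier, rose 2.90-fold (log2 1.54, standard error 0.43, edgeR adjusted p 0.0289), from 30.5, 9.96 and 6.21 CPM to 44.4, 45.1 and 46.5 CPM. Young replicate 1 was the high one of its group, and the log2 fold change of Slco1a4 was 2.48 without it and 1.16 without young replicate 3. Slc10a2, Abcg2 and Slco1a4 each lost the call without young replicate 2, young replicate 3 or old control 2. The edgeR adjusted p rose to at most 0.0615 for Slc10a2, 0.0853 for Abcg2 and 0.116 for Slco1a4. In old knockout against young livers Slco1a1, a carrier of the same family, was lower by 1.19 (log2 -1.19, edgeR adjusted p 0.0330) and Abcg5, a sterol exporter of bile, higher by 0.90 (edgeR adjusted p 0.0420). Neither passed when any 1 of the young livers was left out, with edgeR adjusted p of 0.0717 to 0.131 for Slco1a1 and 0.0772 to 0.148 for Abcg5, nor without knockout 2 or knockout 3, and Abcg5 did not pass without knockout 4 either.

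Of 17 regulators of these genes 16 were tested (Gpbar1 was below the filter), with 2 higher, 2 lower and 12 not called with age. This share is near the 22.8% called over all genes (14.1% higher, 8.66% lower). Hnf4a, the hepatocyte nuclear receptor, measured 1167, 1188 and 1069 CPM in young livers, 437, 475 and 842 CPM in old controls, and 610, 581, 567 and 625 CPM in knockouts. Old control 3 was again the old liver nearest to the young ones, and the age difference was -0.96 (standard error 0.22, edgeR adjusted p 0.0147). Prox1, a corepressor of Cyp7a1, fell by 1.02 (standard error 0.25, edgeR adjusted p 0.0192). Nr2f2, the orphan receptor COUP-TFII, rose by 0.84 (standard error 0.15, edgeR adjusted p 0.00877), and Ppargc1a, a coactivator of fasting, rose by 0.95 (standard error 0.26, edgeR adjusted p 0.0269). The receptor pair for the gut signal FGF15, Fgfr4 and Klb, was not called, at 0.31 and -0.03. By total counts 4 regulators were called higher and 2 lower, and among the other transporters 3 higher and 1 lower.

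**Figure D4:**
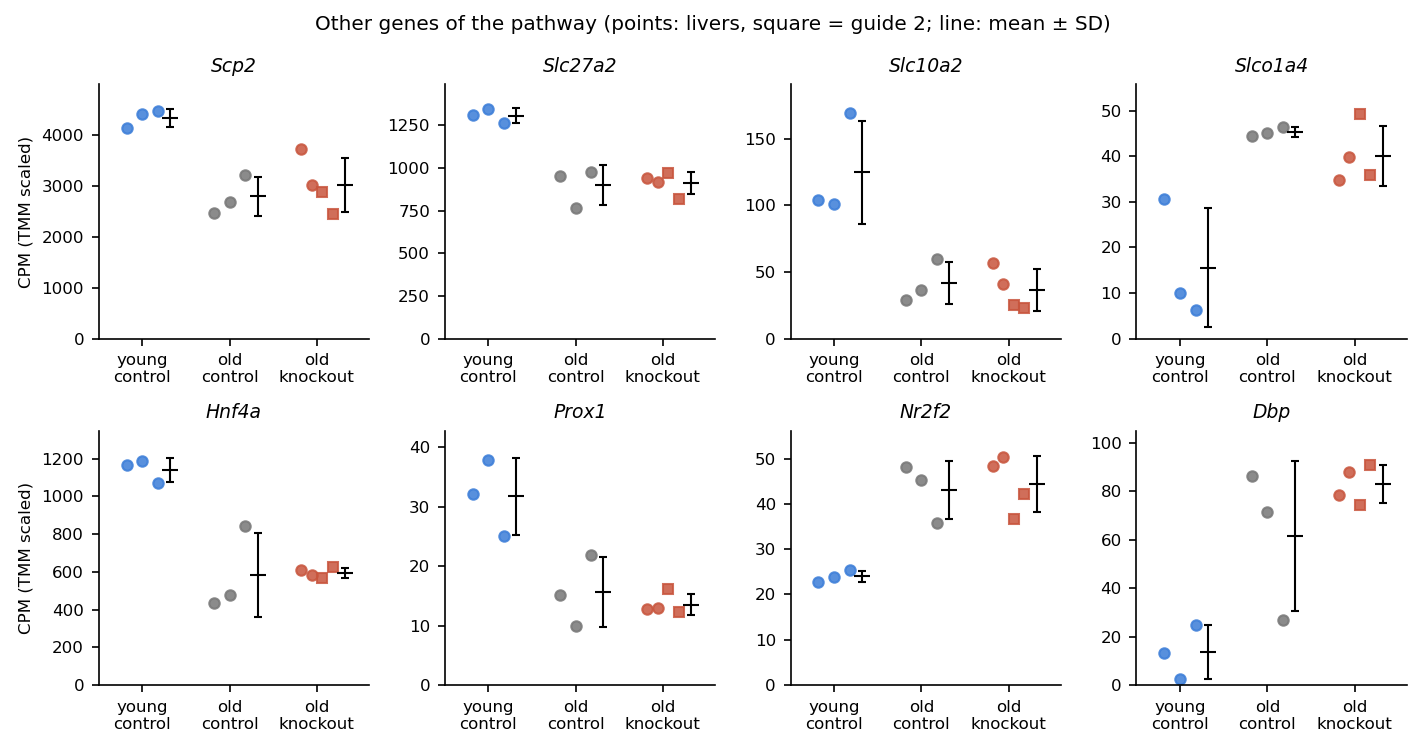
CPM (TMM scaled, vertical axis from 0) per liver of 8 further genes of synthesis, transport and regulation, with circles for control and guide 4 livers, squares for guide 2 livers and lines for mean ± SD. Slc10a2, Scp2, Slc27a2, Hnf4a and Prox1 are lower, and Slco1a4, Nr2f2 and Dbp higher, in every old than in every young liver.

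Cyp7a1 transcription follows the hour of day, and 11 diurnal regulators were read for this reason. With age 1 rose (Dbp, an activator of Cyp7a1, log2 2.18, standard error 0.59, edgeR adjusted p 0.0263) and 3 fell (Nfil3, its competitor, by 1.25, and the clock genes Arntl by 0.95 and Clock by 0.48). Beside these counts, 14.1% of all genes were called higher and 8.66% lower. Dbp measured 13.4, 2.64 and 24.7 CPM in young livers, 86.4, 71.6 and 26.7 CPM in old controls, and 78.3, 87.9, 74.3 and 91.0 CPM in knockouts. Old control 3 lay near the young livers. The log2 fold change of Dbp ran from 1.69 without young replicate 2 to 2.93 without young replicate 3, and of the 6 fits with 1 liver left out the call held in 2, without young replicate 3 and without old control 3. With total counts 4 of the 11 were called higher and 1 lower, Arntl and Clock no longer among the latter. Bhlhe40 was called only in old knockout against young livers, higher by 0.71 (edgeR adjusted p 0.0498). It kept that call in 1 of 7 fits with a liver left out. The part of collection time in the Cyp7a1 values was not tested. Of the 13 enzymes, transporters, regulators and diurnal genes called with age, 7 were still called without young replicate 1, 2 without young replicate 2, 7 without young replicate 3, 9 without old control 1, 2 without old control 2 and 13 without old control 3. Fitting only the young and old control livers kept 3 of the 13 (Slc10a2, Nr2f2 and Nfil3). All 13 kept their direction in each of these fits, and Nr2f2 and Nfil3 kept their call with any 1 liver left out.

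Because Cyp7b1 differs between sexes, lists of sex-biased liver genes were set beside it. Of 12 male-biased genes tested 0 rose, 7 fell and 5 were not called with age, beside 14.1% higher and 8.66% lower over all genes. The median of the 12 was -1.03. The 7 were Cyp4a12a, Cyp4a12b, Cyp2d9, Elovl3, Mup20, Nudt7 and Selenbp2, and under the scaling by total counts 5 genes of the list were called lower and 1 higher. Cyp4a12a, an arachidonic acid hydroxylase, averaged 595 ± 118 CPM in young (SD, n = 3) and 117 ± 67.6 CPM in old control livers (SD, n = 3), though Cyp4a12a and Cyp4a12b are near-identical copies whose reads the counting could split. Of 10 female-biased genes tested 2 rose (Cyp2b9 and Hao2), 0 fell and 8 were not called, with 6 of the 10 below 0 and a median of -0.15. Both risers had few reads in young livers. Cyp2b9 had 5, 0 and 2 counts in young livers and 14, 250 and 498 in old controls 1 to 3. Hao2 had 5, 7 and 6 counts in young livers and 22, 33 and 20 in old controls. With 1 liver left out, Cyp4a12a, Cyp4a12b and Elovl3 were called in all 6 fits, and they were the only male-biased genes of the 7 still called without young replicate 2 or without old control 2. Cyp2d9 and Cyp2b9 were called in 4 of the 6 fits (edgeR adjusted p up to 0.0785 and 0.0747), Selenbp2 and Hao2 in 2 (up to 0.0756 and 0.0732), Mup20 without young replicate 3 or old control 1, and Nudt7 without old control 3. In old knockout against young livers 6 of the 12 male-biased genes were called lower and 3 of the 10 female-biased genes higher. In that comparison 11.6% of all genes were called (4.97% lower). Serpina1e was lower by 2.10 on the log2 scale (edgeR adjusted p 0.00714), called in 7 of 7 fits with a liver left out. Cyp2b13 was higher by 5.19 (edgeR adjusted p 0.0472), called in 0 of 7, with 0, 1 and 0 counts in young livers. In the knockout comparison, which pools the guides, 0 genes were called in any of the lists of enzymes, transporters, regulators, diurnal and sex-biased genes. In the fit by guide, guide 4 against guide 2 called 1 of 11 female-biased genes lower (edgeR adjusted p 0.0295). Guide 2 against old controls called 1 of the 11 higher, Cyp2a4 (edgeR adjusted p 0.0273). Cyp2a4 levels were 19.3, 32.3, 293 and 200 CPM in knockouts 1 to 4, the last 2 being the guide 2 livers. Old controls 1 to 3 had 23.7, 37.8 and 40.1 CPM.

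Markers of other cells moved with age as well. Of the hepatocyte markers 2 of 7 fell (Hnf4a and Serpina1a, the latter 1 of several near-identical copies whose counts are uncertain), with sums of 100028 to 128391 CPM in young and 81462 to 110332 CPM in old control livers. In old controls 4 of 6 endothelial, 5 of 6 macrophage, 4 of 6 stellate, 3 of 5 T and NK, 4 of 5 B and 4 of 5 neutrophil markers rose, and no marker of these lists that the table holds was without a count. Over all genes 14.1% were called higher and 8.66% lower. Old control 2 stood apart in these sums. Neutrophil markers summed to 243 CPM in it against 15.8 and 14.3 CPM in old controls 1 and 3 and 3.67 to 9.73 CPM in young livers, and T and NK markers to 45.7 CPM against 7.77 and 3.34 CPM, with 2.34 to 3.50 CPM in young livers. Macrophage markers summed to 153 to 230 CPM in young livers, to 307, 1030 and 501 CPM in old controls and to 270 to 485 CPM in knockouts, so old control 2 was again the highest. Without old control 2, markers called higher were 3 of 6 endothelial, 3 of 6 macrophage, 2 of 6 stellate, 0 of 5 T and NK, 1 of 5 B and 0 of 5 neutrophil. Without young replicate 2 they were 1 stellate marker and 0 of the other lists. The age call of Cyp7b1 is also lost with either of these livers left out, and that of Baat without young replicate 2. Their part in the values of Cyp7b1, Baat and the other genes was not tested.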

How the data were processed

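RNA of 10 whole livers was sequenced after polyA selection. The authors deposited raw read counts per gene symbol, with no normalization, 1 column per liver. The submitters' processing notes name FastQC 0.11.8, Trim Galore 0.4.4, STAR 2.5.3a, HOMER and mm10. The annotation and strand setting are not given in the sources used here. Counts were tested with edgeR 4.0.16 (R 4.3.3): TMM factors, filterByExpr (minimum count 10, minimum total 15), 1 coefficient per group over all 10 livers, quasi-likelihood F test, Benjamini-Hochberg adjustment over 13909 genes, and a gene called below an adjusted p of 0.05. Standard errors are the log2 fold change over the square root of F, and intervals are 95%. Guides were fitted as separate arms. Log2 CPM for profiles used a prior count of 2. Positions and exon lengths are those of GENCODE on GRCm38, matched by symbol. The fits were checked on simulated counts.

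The members and lists were chosen with earlier results of these data known. Named are all members, Cd44, list genes with an adjusted p under 0.05 (up to 6 per list), the 3 closest profiles of Cyp7a1, Cyp8b1, Cyp7b1 and Nr0b2, and, chosen after their values were seen, the gene neighbours of Baat, Fgfr4, Klb, Mup20 and Nudt7. 1 item of the list of regulators is not reported here and is left out of that list's counts. Alternatives were RLE factors, no filter, DESeq2 1.42.0, fits of only the groups compared, each liver left out and, added after seeing the data, scaling by total counts. Nothing in the labels says that livers are separate animals, so p-values measure the spread between these livers. No 2 livers of a group agreed within sampling noise (chi-square per degree of freedom at least 20.3).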

Additional observations from a re-analysis of the deposited data

Results flagged for a closer look

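Of 37 groups of 4 livers tested (members and named genes in the knockout livers), 1 had a liver far from the rest. Slc27a5 was 768 CPM in knockout replicate 3 against 611 to 619 CPM in the other knockout livers, a gap of 0.951 of the group's whole range. Chance alone passes the cutoff used here, which is lower than this gap, in about 1 of 20 groups. With 37 groups tested, 1 flagged group is no more than chance would give.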

How the results depend on the processing

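No paired analysis was possible because replicate numbers here follow the order of the records and pair no livers. With 2 to 4 livers a group, single livers decide many calls, and the cause was not tested for any value below.

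Genes called with age (3172) were 1192 with only the groups compared, and 396 (without young replicate 2) to 5327 (without old control 3) when a liver was left out. Members called with age were 2 in every alternative that kept all livers, and 0 (without young replicate 2) to 4 (without old control 3) when one was left out. The knockout comparison called 7 genes with DESeq2 and 0 to 3 with a liver left out. Old knockout against young (1614 genes) gave 3585 by total counts (92.9% of them higher, against 57.2%, with a shift of 0.32 in the median of all genes), 2716 with DESeq2, 4223 with only the groups compared and 56 (without young replicate 2) to 1652 with a liver left out. Its members called were 5 with only the groups compared and 0 to 2 with a liver left out. Guide 4 against guide 2 (3 genes) gave 10 without the filter, 69 with DESeq2, 36 with only the groups compared and 0 with any liver left out, where the lone liver of an arm is assumed to vary like the others. Guide 2 against old controls (7 genes) gave 4 with RLE factors, 25 without the filter, 11 by total counts, 106 with DESeq2, 1 with only the groups compared and 0 to 3 with a liver left out. Guide 4 against old controls (0 genes) gave 1 with DESeq2.

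Sign changes were of values that did not pass the test. By total counts the log2 fold changes that changed sign were in the age comparison 0.21 for Cyp27a1, 0.035 for Slc27a5, 0.094 for Slc10a1 and 0.17 for Nr1h4; in the knockout comparison 0.0042 for Abcb11; in old knockout against young 0.29 for Cyp7a1, 0.040 for Slc10a1, 0.28 for Nr1h4 and 0.17 for Nr0b2. With a liver left out, the following ranges crossed 0. In the age comparison they ran from -0.062 to 1.24 for Cyp7a1 and from -0.18 to 0.26 for Nr0b2. In the knockout comparison they ran from -0.37 to 0.14 for Cyp8b1, from -0.43 to 0.29 for Cyp7b1, from -0.29 to 0.057 for Slc27a5, from -0.23 to 0.042 for Slc10a1, from -0.19 to 0.17 for Abcb11 and from -0.43 to 0.0036 for Nr0b2. In old knockout against young they ran from -0.62 to 0.90 for Cyp7a1, from -0.13 to 0.040 for Nr1h4 and from -0.38 to 0.083 for Nr0b2. In guide 4 against guide 2 they ran from -0.28 to 0.057 for Baat, from -0.25 to 0.15 for Slc10a1 and from -0.92 to 0.49 for Nr0b2.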
